A study of Mus musculus with 4 samples.

Results

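The genes described here encode the enzymes of cholesterol and fatty acid synthesis, with their regulators and 1 sterol carrier. The list holds 29 genes named by symbol, of 21249 gene sums in the tables, and all 29 were found, Sc4mol under that older symbol of Msmo1. It comprises 6 genes of the mevalonate steps (Acat2, Mvk, Pmvk, Mvd, Idi1, Fdps), 2 that make squalene and its epoxide (Fdft1, Sqle), 9 that turn the epoxide into cholesterol (Lss, Cyp51, Tm7sf2, Sc4mol, Nsdhl, Hsd17b7, Ebp, Sc5d, Dhcr7), 4 regulators and carriers (Srebf1, Srebf2, Insig1, Stard4) and 8 of fatty acid synthesis, desaturation and elongation (Acaca, Fasn, Scd1, Scd2, Elovl5, Elovl6, Fads1, Fads2).

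RNA was sequenced from whole spinal cord of mice at postnatal day 8, in 2 control libraries (Chd7f/+ with Olig1-cre) and 2 conditional knockout (cKO) libraries (Chd7f/f with Olig1-cre). Both groups carry the Cre recombinase, whose driver gene Olig1 belongs to the oligodendrocyte lineage, and the controls already carry 1 floxed allele of Chd7, which encodes a chromatin remodeler. The strain background is labelled mixed, and the labels do not say whether the libraries of a group came from separate animals, so p-values measure the spread between these libraries. Chd7 itself had values of 3.52 and 3.12 FPKM (fragments per kilobase of transcript, scaled to the depth of the library) in controls 1 and 2 against 2.53 and 3.38 FPKM in cKO 1 and 2. The Chd7 values overlap between the groups, in a cord that holds many cells outside the Olig1 lineage. Pairs of values are given in the order of libraries 1 and 2 of each group throughout.

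Cholesterol is a main lipid of the myelin sheath, and the brain and cord make nearly all of their own, since plasma lipoproteins do not pass the blood-brain barrier. The mevalonate steps build isoprenoid units from acetyl-CoA, these are joined to squalene, and a series of ring closures, demethylations and double-bond shifts turns squalene into cholesterol. The transcription factor SREBP2, encoded by Srebf2, drives the sterol genes when membrane sterol is low, SREBP1, encoded by Srebf1, drives mainly the fatty acid genes, and Insig1 holds both in the endoplasmic reticulum when sterol is plentiful. Oligodendrocytes make large amounts of both lipids while they wrap axons, and astrocytes and neurons make them too.

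Each of the 29 genes was well detected, from 6.09 FPKM for Hsd17b7 in cKO 1 to 717 FPKM for Scd2 in control 1, so all of them entered the test. In limma over 12913 gene sums, with p-values adjusted over all of them at 0.05, 6 of the 29 genes fell, and no member rose. These were Lss, Idi1, Cyp51, Elovl6, Hsd17b7 and Ebp, which is 20.7% of the list, where 6.54% of all gene sums fell and 4.13% rose. At an unadjusted p under 0.05, 8 of the 29 were lower and none higher, where 13.8% of all gene sums were lower and 10.4% higher. The median log2 difference (cKO minus control, on the log2(FPKM + 1) scale) was -0.18 over the 29 genes and -0.0028 over all gene sums tested. Both cKO libraries lay below both controls for 14 of the 29 genes, or 48.3%, against 29.3% of all gene sums, and above both controls for 3, or 10.3%, against 24.3%. In whole cord, fewer cells of a type and less RNA per cell cannot be told apart.

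**Figure D1:**
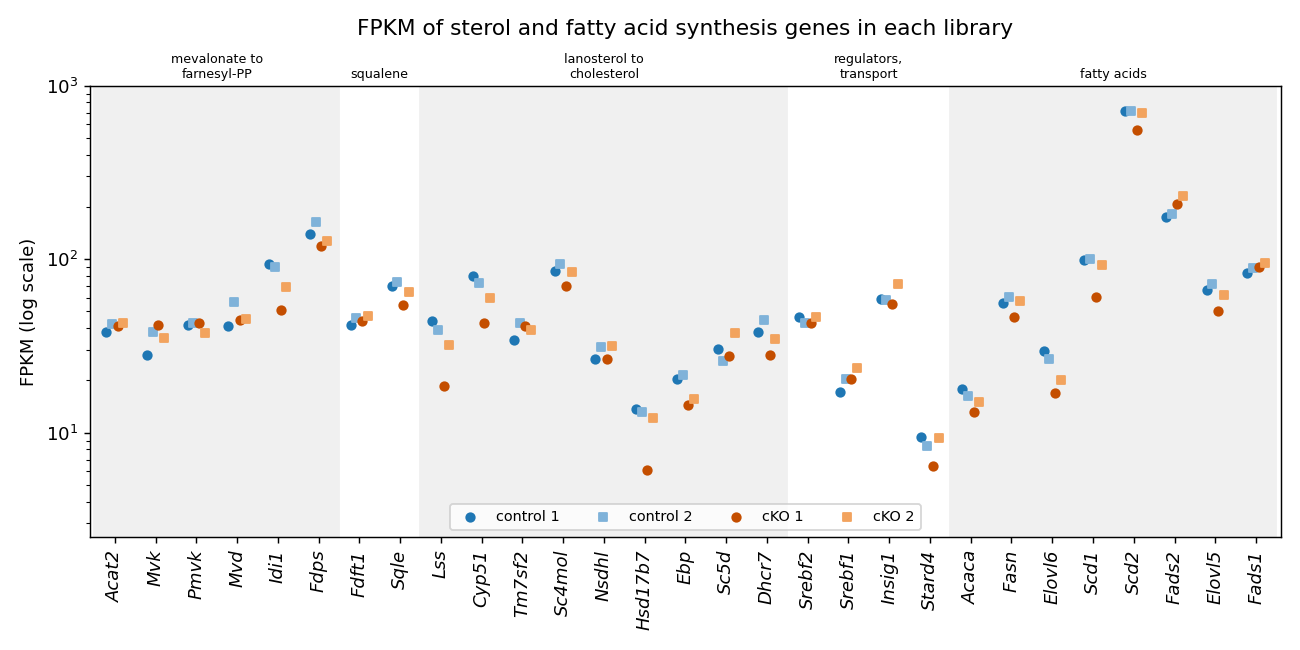
FPKM of each of the 29 genes in each of the 4 libraries, on a log axis, in pathway order; circles are replicate 1, squares replicate 2, blue is control and orange is cKO. cKO 1 is the lowest of the 4 libraries for 18 of the 29 genes, and for 3481 of all 12913 gene sums tested.

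**Figure D2:**
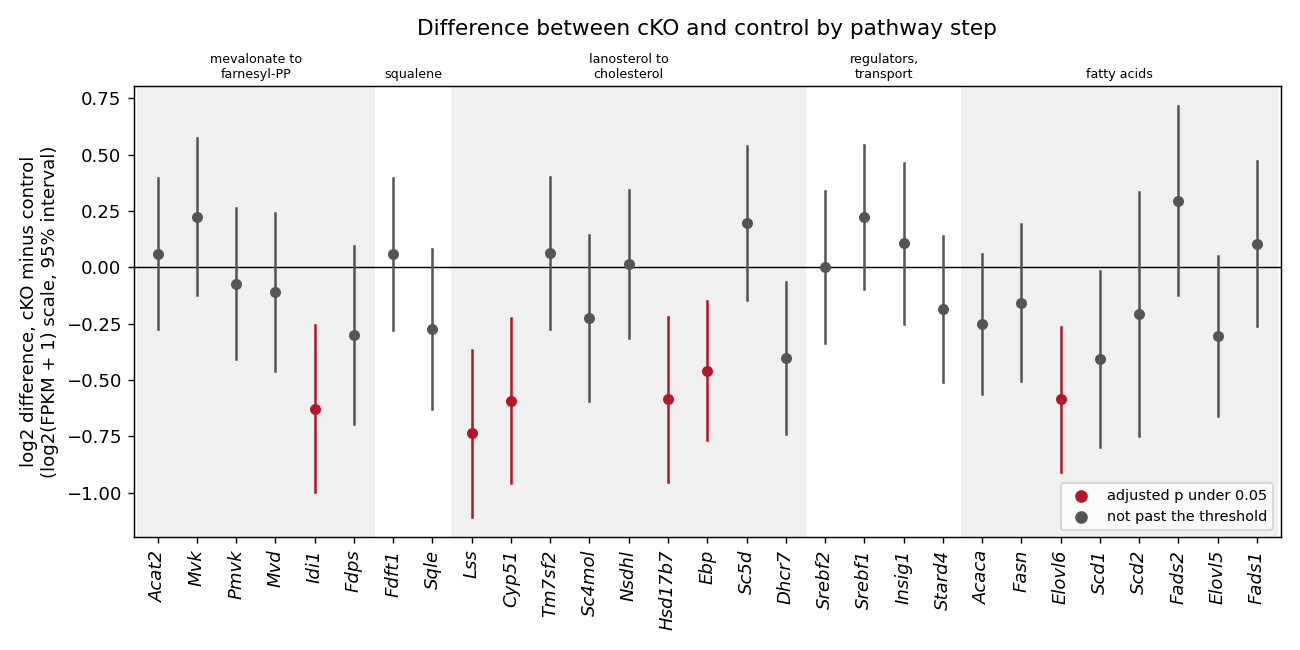
Log2 difference between cKO and control for each gene (points, 2 libraries per group) with its 95% interval from limma (lines), in pathway order. The 6 genes past the threshold, in red, run from -0.46 for Ebp to -0.74 for Lss.

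Among the mevalonate steps, 1 of 6 genes fell. Idi1, the isomerase that interconverts the 2 isoprenoid building blocks, was found at 93.8 and 90.1 FPKM in control cords against 50.9 and 68.9 FPKM in cKO cords. Both cKO libraries lay below both controls, with cKO 1 the lower of them. On average Idi1 went from 92.0 ± 2.58 to 59.9 ± 12.7 FPKM (SD, n = 2 each), a log2 difference of -0.63 ± 0.18 (SE, limma adjusted p = 0.0199). Fdps, which joins the units to farnesyl pyrophosphate, stood at 139.9 and 164 FPKM in control cords against 119.5 and 127 FPKM in cKO cords. Its groups did not overlap either, but the difference of -0.30 ± 0.20 did not pass (adjusted p = 0.368). The 4 genes ahead of Idi1 had overlapping groups and differences between -0.11 and 0.23. Of these, Mvk, the mevalonate kinase, had values of 27.9 and 38.2 FPKM in control cords against 42.0 and 34.9 FPKM in cKO cords, and its 95% interval ran from -0.12 to 0.57. Acat2, the cytosolic thiolase, Pmvk, the phosphomevalonate kinase, and Mvd, the decarboxylase, were between 37.4 and 56.5 FPKM in all libraries, with no order by group.

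Neither squalene gene passed. Sqle, the squalene epoxidase and a rate-limiting step of the pathway, was found at 70.3 and 73.7 FPKM in control cords against 54.4 and 64.8 FPKM in cKO cords. Both cKO values were lower, and the difference of -0.28 ± 0.18 did not pass (adjusted p = 0.352), with an interval from -0.63 to 0.08. Fdft1, the squalene synthase, stood at 41.6 and 45.7 FPKM in control cords against 44.1 and 46.9 FPKM in cKO cords, with overlapping groups and an interval from -0.28 to 0.40.

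Of the 9 genes between squalene epoxide and cholesterol, 4 fell and 0 rose (median difference -0.40). Lss, the lanosterol synthase that closes the sterol rings, had values of 43.8 and 38.8 FPKM in control cords against 18.5 and 32.0 FPKM in cKO cords. It had the lowest difference of the 29 genes, at -0.74 ± 0.18 (SE; 41.3 ± 3.54 and 25.2 ± 9.51 FPKM, SD, n = 2 each; adjusted p = 0.00552). The spread between the cKO libraries was wide, and cKO 2 lay closer to the controls than to cKO 1. Cyp51, the lanosterol demethylase, was found at 80.3 and 72.8 FPKM in control cords against 42.7 and 59.5 FPKM in cKO cords, a difference of -0.59 ± 0.18 (adjusted p = 0.0273). Hsd17b7, the 3-ketosteroid reductase of this path, stood at 13.8 and 13.1 FPKM in control cords against 6.09 and 12.1 FPKM in cKO cords. Its difference of -0.58 ± 0.18 passed (adjusted p = 0.0297) although cKO 2 was close to the controls, at -0.14 from their mean against -1.03 for cKO 1.

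Ebp, the sterol isomerase on the X chromosome, had values of 20.4 and 21.4 FPKM in control cords against 14.3 and 15.5 FPKM in cKO cords. Both groups were tight for Ebp, and its difference of -0.46 ± 0.15 passed narrowly (adjusted p = 0.0473). The libraries were not alike in sex-linked RNA. Xist, which the inactive X makes in females, was found at 55.6 and 51.8 FPKM in control cords against 19.6 and 0.233 FPKM in cKO cords, and the Y-linked Ddx3y was at 11.6 FPKM in cKO 2 and at most 0.195 FPKM elsewhere. Their part in the Ebp result, or in any other difference between these libraries, was not tested. Nsdhl, the other X-linked member and the sterol dehydrogenase of C4 demethylation, stood at 26.4 and 31.1 FPKM in control cords against 26.4 and 31.7 FPKM in cKO cords, and its groups overlapped.

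The last enzyme, Dhcr7, had values of 38.3 and 44.8 FPKM in control cords against 27.9 and 34.5 FPKM in cKO cords. Its groups did not overlap and its difference of -0.40 ± 0.17 missed the threshold (adjusted p = 0.119). Sc4mol, the methyl sterol oxidase, was found at 85.9 and 93.9 FPKM in control cords against 69.8 and 84.2 FPKM in cKO cords (-0.23 ± 0.18, adjusted p = 0.485). Sc5d, the desaturase ahead of Dhcr7, lay the other way, at 30.5 and 25.8 FPKM in control cords against 27.7 and 37.6 FPKM in cKO cords, and its groups overlapped. Tm7sf2, one of the sterol reductases that act after Cyp51, was between 34.3 and 43.1 FPKM in all 4 libraries. Genes that fell thus sat beside genes of the same path whose groups overlapped, and whether their differences differ from each other was not tested.

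Promoter windows (RefSeq, GRCm38.p6, 250 bases before to 50 after each start) were searched for 22 of the 29 genes. No window was searched for Fdps, Fdft1, Sqle, Stard4, Scd1, Scd2 and Fads1, so whether these genes hold the motifs was not tested. The windows were searched on both strands for TCACNCCAC (a form of the sterol regulatory element bound by SREBP), CCAAT (bound by NF-Y, a cofactor of SREBP at sterol genes), GGGCGG (the GC box of Sp1) and CACGTG (an E-box). These motifs do not contain each other. CCAAT was found for 18 of the 22 genes, or 81.8%, against 43.2% of the 9191 tested symbols with a window, and for 5 of the 6 genes that fell and 13 of the 16 others. The GC box was found for 77.3%, against 70.7% of tested symbols, and the E-box for 22.7% against 11.9%. None of the member windows searched held TCACNCCAC, which 1.43% of tested symbols have. The 100 bases before the start are shown for the 6 genes that fell, to be set beside those of 4 sterol genes with overlapping groups, each 5′ to 3′ on the gene's strand with CCAAT (or ATTGG, its other strand) in capitals.
Idi1, fell, chr13:8885506-8885605, plus strand: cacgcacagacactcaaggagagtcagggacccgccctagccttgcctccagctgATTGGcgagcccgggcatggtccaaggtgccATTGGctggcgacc
Lss, fell, chr10:76531505-76531604, plus strand: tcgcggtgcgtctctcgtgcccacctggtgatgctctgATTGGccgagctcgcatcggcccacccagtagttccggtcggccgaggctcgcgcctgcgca
Cyp51, fell, chr5:4104698-4104797, minus strand: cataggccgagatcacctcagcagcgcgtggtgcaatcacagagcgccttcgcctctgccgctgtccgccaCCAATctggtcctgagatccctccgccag
Hsd17b7, fell, chr1:169969206-169969305, minus strand: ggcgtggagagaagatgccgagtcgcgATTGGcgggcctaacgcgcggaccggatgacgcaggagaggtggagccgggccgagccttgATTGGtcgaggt
Ebp, fell, chrX:8193513-8193612, minus strand: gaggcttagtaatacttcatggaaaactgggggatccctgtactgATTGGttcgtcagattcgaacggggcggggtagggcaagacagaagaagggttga
Elovl6, fell, chr3:129532286-129532385, plus strand: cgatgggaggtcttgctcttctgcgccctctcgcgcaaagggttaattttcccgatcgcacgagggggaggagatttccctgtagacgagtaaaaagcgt
Mvk, overlapping groups, chr5:114444169-114444268, plus strand: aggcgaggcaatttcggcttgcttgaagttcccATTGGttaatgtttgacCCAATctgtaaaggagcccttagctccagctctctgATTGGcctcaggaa
Mvd, overlapping groups, chr8:122443423-122443522, minus strand: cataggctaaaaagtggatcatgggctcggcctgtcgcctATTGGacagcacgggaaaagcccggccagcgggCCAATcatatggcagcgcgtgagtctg
Nsdhl, overlapping groups, chrX:72918421-72918520, plus strand: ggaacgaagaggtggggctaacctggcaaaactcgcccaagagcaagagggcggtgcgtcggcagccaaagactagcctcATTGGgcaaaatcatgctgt
Tm7sf2, overlapping groups, chr19:6067851-6067950, minus strand: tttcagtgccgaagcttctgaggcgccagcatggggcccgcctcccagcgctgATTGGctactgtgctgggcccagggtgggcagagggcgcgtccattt
The box thus stands before genes that fell and before genes that did not pass, and Elovl6 fell with none in these bases. The comparison genes shown were picked by name, and all of them hold the box. Acat2, a mevalonate gene with overlapping groups, is not shown and had no CCAAT in the bases searched. A match is a stretch of letters, not a measured binding site.

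None of the 4 regulators and carriers passed. Srebf2 stood at 46.1 and 42.7 FPKM in control cords against 42.6 and 46.4 FPKM in cKO cords, a difference of 0.002 with an interval from -0.33 to 0.34. Srebf1 had values of 17.2 and 20.3 FPKM in control cords against 20.4 and 23.6 FPKM in cKO cords. Its cKO values lay just above the controls, with a difference of 0.22 ± 0.16 (adjusted p = 0.417). The tables give 1 transcript for Srebf1, so its isoforms are not told apart. Insig1, itself a target of SREBP, was found at 58.7 and 57.8 FPKM in control cords against 55.2 and 71.5 FPKM in cKO cords, and Stard4, a carrier of cholesterol between membranes, at 9.43 and 8.42 against 6.41 and 9.26 FPKM. In both genes cKO 1 was lower than the controls and cKO 2 was not lower than both.

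Of the 8 fatty acid genes, 1 fell and 0 rose (median -0.23). Elovl6, the elongase that takes palmitate to stearate, stood at 29.7 and 26.7 FPKM in control cords against 16.9 and 20.1 FPKM in cKO cords. The groups were well apart (28.2 ± 2.16 and 18.5 ± 2.32 FPKM, SD, n = 2 each), with a difference of -0.59 ± 0.16 (adjusted p = 0.0117). The 2 enzymes that build palmitate did not pass. Acaca, the acetyl-CoA carboxylase and first committed step, had values of 17.7 and 16.2 FPKM in control cords against 13.2 and 15.0 FPKM in cKO cords (-0.25 ± 0.15, adjusted p = 0.325). Fasn, the fatty acid synthase, was found at 55.6 and 60.3 FPKM in control cords against 46.7 and 57.5 FPKM in cKO cords, so its groups overlapped.

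The stearoyl-CoA desaturases, which make oleate, were among the most abundant members per length. Scd2 was the highest of the 29 genes, at 717 and 716 FPKM in control cords against 555 and 695 FPKM in cKO cords (-0.21 ± 0.27, adjusted p = 0.692). Scd1 stood at 99.1 and 99.8 FPKM in control cords against 60.5 and 92.5 FPKM in cKO cords. Scd1 lay at -0.71 from the control mean in cKO 1 and at -0.10 in cKO 2, and its difference of -0.41 ± 0.19 did not pass (adjusted p = 0.185). The ratio of Scd2 to Scd1 was 7.23 and 7.17 in the controls, 9.17 in cKO 1 and 7.52 in cKO 2, so both transcripts were low in cKO 1, with Scd1 the lower in proportion.

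The polyunsaturated branch lay partly the other way. Fads2, the delta-6 desaturase, had values of 175 and 182 FPKM in control cords against 207 and 232 FPKM in cKO cords, and Fads1, the delta-5 desaturase, at 82.7 and 89.5 against 90.4 and 94.9 FPKM. Both desaturases were higher in both cKO libraries, which among the 29 genes was otherwise seen for Srebf1, but neither passed (0.30 ± 0.21 and 0.11 ± 0.18, adjusted p = 0.408 and 0.779). Elovl5, the elongase between them, was found at 66.6 and 71.8 FPKM in control cords against 50.1 and 62.0 FPKM in cKO cords (-0.31 ± 0.18, adjusted p = 0.292), lower in both cKO libraries and not past the threshold.

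Of 19 other genes of sterol synthesis, transport and efflux, 15 were tested, 2 fell and 0 rose (median -0.09). Npc1, which exports cholesterol from lysosomes, stood at 21.0 and 19.2 FPKM in control cords against 9.71 and 13.7 FPKM in cKO cords (-0.75 ± 0.16, adjusted p = 0.00130). Soat1, which esterifies cholesterol, had values of 6.0 and 5.13 FPKM in control cords against 2.77 and 3.97 FPKM in cKO cords (-0.60 ± 0.16, adjusted p = 0.00965). Both were lowest in cKO 1, and without that library none of the list passed. Under each of the 3 other scalings Npc1 still fell (limma adjusted p from 0.0201 to 0.0357), and Soat1 did not pass, with differences from -0.52 to -0.62 (adjusted p from 0.0506 to 0.0851). Hmgcs1 is listed at 0 in all 4 libraries and was left aside, since a 0 in these tables can be a failed estimate.

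Of 25 other fatty acid genes, 21 were tested, 4 fell and 0 rose (median -0.14). Elovl7 and Elovl1, elongases of long and very long chains, were at 25.7 and 24.1 against 6.50 and 13.7 FPKM (-1.30 ± 0.19, adjusted p = 4.95e-06) and at 53.9 and 67.1 against 25.9 and 35.3 FPKM (-0.97 ± 0.18, adjusted p = 1.57e-04). Acsl1, an acyl-CoA synthetase, and Acss2, which makes acetyl-CoA from acetate, fell by 0.71 and 0.50 on the log2 scale. Without cKO 1, 2 of the list fell. Both elongases had larger differences than Elovl6, and a test between the genes was not made. Acly, which makes cytosolic acetyl-CoA from citrate, was found at 69.6 and 71.0 FPKM in control cords against 58.6 and 65.1 FPKM in cKO cords (adjusted p = 0.565).

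The cKO libraries did not contribute equally. They also differed from each other in sex-linked RNA, as given with Ebp, and its part in what follows was not tested. cKO 1 was below cKO 2 for 26 of the 29 genes, or 89.7%, where this held for 39.9% of all gene sums, and the median log2 distance from the controls was -0.34 for cKO 1 and -0.09 for cKO 2. In cKO 1, 18 of the 29 genes, or 62.1%, lay below both controls, against 37.0% of all gene sums. In cKO 2, 15 did, or 51.7%, against 40.5% of all gene sums. Without cKO 1 none of the 29 genes passed, and the differences of the 6 that fell ran from -0.14 for Hsd17b7 to -0.46 for Elovl6. With that library left out, all gene sums called lower went from 845 to 277. Without control 1, Lss and Hsd17b7 passed, and without control 2, Lss, Hsd17b7 and Elovl6. Without cKO 2, 6 genes passed, Scd1 in place of Ebp. The call also depended on scale. Under scalings by median of ratios or to equal FPKM sums only Elovl6 passed, and under quantile scaling Elovl6 and Idi1. Over all gene sums, 550 of 12911, 460 of 12916 and 426 of 12913 fell under these scalings, in that order. The differences of the 6 genes moved little: they ran from -0.44 to -0.78 over these 3 scalings, against -0.46 to -0.74 before. The limma adjusted p of the calls lost ran from 0.0532 for Idi1 by median of ratios to 0.203 for Hsd17b7 under quantile scaling. With no filter on low values, or with rows under 300 bases added to the sums, none of the 29 passed, and gene sums called lower went from 845 to 33 and to 30.

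**Figure D3:**
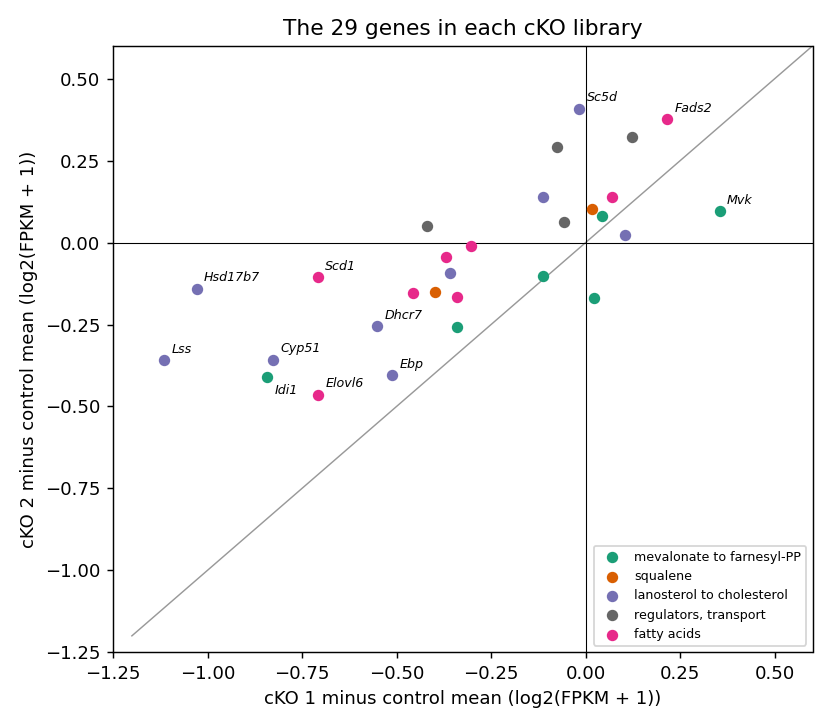
Distance of each gene from the control mean on the log2(FPKM + 1) scale, in cKO 1 (x axis) and cKO 2 (y axis); the grey line marks equal distance and colours mark pathway steps. Points above the line, 26 of 29, are lower in cKO 1 than in cKO 2.

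Summed over the steps, FPKM of the 9 genes after squalene epoxide was 374 and 385 in the controls and 275 and 346 in the cKO libraries. The 6 mevalonate genes summed to 383 and 434 in the controls and to 341 and 356 in the cKO libraries. For the 8 fatty acid genes the sums were 1243 and 1263 in the controls and 1040 and 1269 in cKO 1 and 2, so the sum of cKO 2 was not lower. Scd2 alone made 695 FPKM of that sum. Gene by gene, 5 of the 8 lay below both controls in cKO 2 and 2 lay above both.

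Neuron, astrocyte and oligodendrocyte markers were all detected in every library, as spinal cord tissue has them, and several lists moved with the groups. Of 10 markers of myelinating oligodendrocytes, 9 fell. Mbp was also lower in both cKO libraries, at 8794 and 10806 FPKM in controls against 4235 and 6284 FPKM, but did not pass (limma adjusted p = 0.234). The summed FPKM of the 10 markers was 16432 and 18684 in the controls and 6684 and 10492 in the cKO libraries, or 38.1% and 59.8% of the control mean. The 29 genes together stood at 82.2% and 97.7% of their control mean in cKO 1 and 2. The 6 astrocyte markers stood at 55.9% and 90.6%, with Slc1a3 higher and none past the threshold lower, and the 6 neuron markers at 147% and 121%, with Slc32a1 higher. Of 6 markers of meninges 5 fell, and their sum was 232 and 44.1 FPKM in controls 1 and 2 and 23.2 and 27.8 FPKM in the cKO libraries. The Schwann cell markers, of which all 3 tested fell, summed to 113 and 28.7 FPKM in the controls and to 18.2 and 18.7 FPKM in the cKO libraries. In both of these lists control 1 stood far above control 2. Of 4 microglia markers, P2ry12 (-0.72) and Cx3cr1 (-0.50) fell, and the list's sum stood at 79.5% and 81.3% of the control mean. Of 4 oligodendrocyte precursor markers, Gpr17 fell by 1.60 on the log2 scale, and Pdgfra, Cspg4 and Ptprz1 did not pass, with differences from 0.13 to 0.26. The part of these cells in the sterol results was not tested. Adipocytes, which express fatty acid genes strongly, left almost no signal: the 5 markers summed to between 0.06 and 0.44 FPKM, with Cidec listed at 0 in 3 libraries and Lep in 3.

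**Figure D4:**
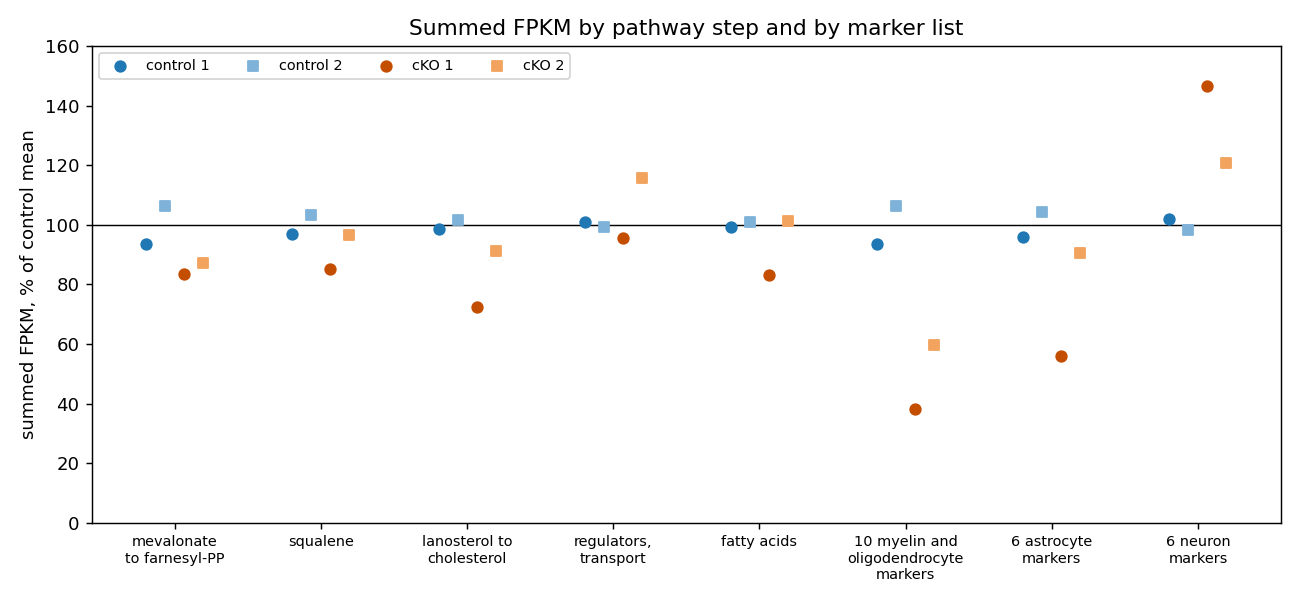
FPKM summed over each pathway step and over 3 marker lists in each library, as a percentage of the mean of the 2 controls (line at 100%). The oligodendrocyte markers stand at 38.1% and 59.8% in the cKO libraries, the genes after squalene epoxide at 72.5% and 91.3%.

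Depth was 1.0 in control 2, the shallowest library, and 2.07, 2.22 and 3.19 relative to it in control 1, cKO 1 and cKO 2, and mean coverage of the 29 genes ran from 6.03 reads per base for Stard4 to 1589 for Scd2. Reads of some members can be shared with other loci. Of all 50-base runs in the longest coding transcript (GENCODE M21), 86.4% for Fdps, 52.6% for Acaca, 45.9% for Acat2, 30.7% for Fdft1 and 30.5% for Idi1 recur in transcripts of other genes, of which Acat3 is the main one for Acat2 and the overlapping Ctsb for Fdft1. Values of these 5 genes are therefore less certain. For the other 24 members the share was under 5%, and for 15 it was 0, Hsd17b7 and Ebp among them. On mm9, the build of the tables, the genes that fell lie at chr10:75994372-76016679 (Lss), chr13:8884852-8891642 (Idi1), chr5:4080674-4104697 (Cyp51), chr3:129235304-129341411 (Elovl6), chr1:171879668-171899336 (Hsd17b7) and chrX:7762457-7770638 (Ebp). The tables list 27 members as 1 transcript and Mvd and Pmvk as 2, whose values were summed.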

How the data were processed

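The labels' protocols name frozen cords, Trizol extraction and a TruSeq RNA kit. The deposited tables hold FPKM per RefSeq transcript and coverage (a signal, mean reads per base), in the Cufflinks layout per the file headers. The submitters' processing notes list CASAVA, TopHat, Cufflinks, Cuffdiff and mm9. Whether counting used strand is not stated in those sources.

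Rows were matched across the 4 tables, the 315 of 28107 rows whose status was not OK in some library were dropped, and FPKM was summed per symbol over rows of at least 300 bases. Gene sums with a mean of at least 1 FPKM entered limma 3.58.1 (R 4.3.3) as log2(FPKM + 1), with a group term, a mean-variance trend and Benjamini-Hochberg adjustment at 0.05. The +1 understates differences of low genes. The spread is mostly pooled over genes (36.3 prior, 2 residual degrees of freedom). The script was tested on simulated data. It recovered 22 of 100 genes changed by 0.5 on the log2 scale and 99 of 100 changed by 1, with 4 false calls. A gene that did not pass may therefore still differ by about 0.5. The simulated noise was independent, at the spread limma gave each gene, and all other genes were left unchanged. In the data more genes were called and the cKO libraries differed from each other. The 4 false calls are thus not an error rate of the real comparison. Read numbers are unknown, so no counting interval is given.

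Members, lists and tests were chosen with earlier results of these data known. Named are members past the threshold and a set of enzymes and regulators fixed by name. Of the other lists, up to 4 genes past the threshold with the smallest p are named, with Hmgcs1 and Acly. Some genes that these rules select are left out here.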

Additional observations from a re-analysis of the deposited data

How the results depend on the processing

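The 6 members that fell did so too with a pseudocount of 0.1, a mean of at least 5 FPKM and robust moderation, and 4 of them without the trend. By TPM scaling the count was 1 of 29, where 460 of 12916 gene sums fell. By median-of-ratios scaling it was 1 of 29, where 550 of 12911 fell, and by quantile scaling 2 of 29, where 426 of 12913 fell. With no filter or with all rows summed it was 0, where 33 of 18398 and 30 of 13171 gene sums fell. In those last settings fold differences of the members were the same and the cause was not tested. Leaving out 1 library gave 0 to 6. No member rose under any of the 15 alternatives.

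Over all gene sums, 845 fell and 533 rose. With no filter these counts were 33 and 22, with all rows summed 30 and 23, by median-of-ratios scaling 550 and 418, by TPM scaling 460 and 204, by quantile scaling 426 and 310, and with 1 library left out 277 to 900 and 107 to 555. Of the 19 other sterol genes, 0 fell with no filter or all rows summed, 1 fell at a mean of at least 5 FPKM and by median-of-ratios, TPM and quantile scaling, 0 to 3 fell without 1 library, and 1 rose with no filter. Of the other fatty acid genes 0 fell with no filter or all rows summed and 2 to 4 without 1 library. In that list 1 rose at a mean of at least 5 FPKM and with robust moderation, and 0 to 2 did without 1 library.

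The replicate numbers are not known to pair the libraries, and deviations of same-numbered libraries correlated at -0.24 across genes. With a replicate block, 3 members fell (Lss, Hsd17b7, Elovl6), and 645 gene sums fell and 351 rose. With the numbers crossed, an alternative added after the data were seen, 6 members fell, 1235 gene sums fell and 943 rose, and 3 other sterol genes fell and 1 other fatty acid gene rose.

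Directions turned only for members that did not pass. Under quantile scaling the log2 differences were -0.0016 for Fdft1, -0.0014 for Tm7sf2, -0.0214 for Nsdhl and -0.0573 for Srebf2, and under TPM scaling -0.0148 for Nsdhl and -0.0271 for Srebf2. With 1 library left out they ran from -0.013 to 0.14 for Acat2, -0.17 to 0.022 for Pmvk, -0.33 to 0.11 for Mvd, -0.0056 to 0.13 for Fdft1, -0.10 to 0.22 for Tm7sf2, -0.11 to 0.14 for Nsdhl, -0.017 to 0.41 for Sc5d, -0.057 to 0.062 for Srebf2, -0.076 to 0.29 for Insig1 and -0.42 to 0.051 for Stard4.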
